A study of Mus musculus with 24 samples.

Results

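The genes described here are 10 mouse genes known as transcriptional targets of glucocorticoid hormone, followed in 2 tissues of mice, wild type (WT) or lacking 1 phenylalanine tRNA gene. They are Fkbp5, Tsc22d3, Zbtb16, Klf9, Plin4, Sgk1, Errfi1, Ddit4, Map3k6 and Cdkn1a, taken by gene symbol from the normalised count tables of brain and liver. Each table held 55469 genes. All 10 members passed the filter of a mean normalised count of at least 10, as did 19228 genes in the brain and 15856 in the liver. The list was chosen by a reading of earlier results of these same samples, that is, of genotype differences in these counts, and which of them weighed in the choice was not recorded. Every genotype difference of a member, and whether it passed a threshold, is therefore given as a description. No p-value of a member is printed, and neither the differences nor the calls are independent evidence of a direction.

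Glucocorticoids (corticosterone in the mouse) are steroid hormones of the adrenal cortex, released in a daily rhythm and under stress. They bind the glucocorticoid receptor, the product of Nr3c1, which is held in the cytoplasm by heat shock protein chaperones, moves to the nucleus and binds palindromic response elements in DNA. In the liver the hormone is known for raising glucose output, and in the brain for feedback on its own release, with strong responses in glial and endothelial cells.

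RNA from brain and liver was sequenced from WT mice and from 3 lines homozygous for the deletion of a single gene, each named after that gene (tRNA-Phe-1-1-/-, then tRNA-Phe-2-1-/-, then tRNA-Phe-3-1-/-), with 3 samples, A to C, in each of the 8 groups and 24 in all. All were untreated males on a C57BL/6N background, described in the study's materials as 10 weeks old, fed chow and kept under a 12-h light/dark schedule. The study's methods describe littermate-matched controls, and also state that the mice used came from different litters. The deletions were made with CRISPR-Cas9 and are present in every cell of the body, not in the sampled tissue alone. tRNA-Phe-1-1 is 1 of 5 genes with the same mature sequence, and the other 4 were left in place in that line. The deleted tRNA genes were not identified by name among the rows of these tables, so the genotype labels were not checked against their levels. Corticosterone was not among the measurements analysed here, and the hour of dissection is not given in the sources used here.

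The depth recovered from the tables was 30365760 to 46225360 reads per brain sample and 32276896 to 51584522 per liver sample. The least covered member, Map3k6 in the liver, had 13 to 192 reads per sample. Levels below are normalised counts, which are reads divided by 1 size factor per sample, and each tissue was scaled on its own, so levels were not compared between tissues. Log2 fold changes are given with their standard error, from a linear model (limma) on log2 of the normalised count plus 1 over the 12 samples of a tissue, and a gene is called where its p-value, adjusted over all genes tested, was under 0.05. In whole tissue, fewer cells of a type and less RNA per cell cannot be told apart. The markers of some cell types also varied widely between samples: the summed level of 6 choroid plexus markers ran from 123 to 52205 normalised counts over the 12 brains and that of 6 oligodendrocyte markers from 36737 to 139320, while the 6 neuron markers ran from 87192 to 160692. The 6 hepatocyte markers summed to between 2341040 and 3545680 in the livers.

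Promoter sequences from RefSeq (GRCm38.p6, 250 bases before to 50 after a transcription start) covered 18 starts of 9 members. They were searched on both strands for the receptor's palindrome, GNACA and TGTNC with 3 bases between them and N for any base, for its half-site AGAACA, and for the E-box CACGTG that clock proteins bind. The palindrome lay in 156 of 32851 promoters of the genome (0.475%) and in 2 of the 18 promoters of the members, 1 of Sgk1 and the 1 of Map3k6. The half-site lay in 19% of all promoters and in 4 of the 18, namely 3 of the 6 of Sgk1 and 1 of the 3 of Tsc22d3. The E-box lay in 7.15% of all promoters and in 2 of the 18, that of Fkbp5 and 1 of Sgk1. The 3 promoters below are shown because they hold a palindrome or belong to Fkbp5, a member called in both tissues whichever library was left out, with the matches to the palindrome and the E-box in capitals. In the Sgk1 promoter the palindrome starts 188 bases before the start of transcription and overlaps half-sites, and the E-box starts 246 bases before it. In the Map3k6 promoter, of a start inside the annotated gene, the palindrome starts 181 bases before the start, and in that of Fkbp5 the E-box starts 169 bases before it. A match is a description of the letters and not a bound site.
Sgk1 promoter (GRCm38.p6, chr10:21993640-21993939, plus strand): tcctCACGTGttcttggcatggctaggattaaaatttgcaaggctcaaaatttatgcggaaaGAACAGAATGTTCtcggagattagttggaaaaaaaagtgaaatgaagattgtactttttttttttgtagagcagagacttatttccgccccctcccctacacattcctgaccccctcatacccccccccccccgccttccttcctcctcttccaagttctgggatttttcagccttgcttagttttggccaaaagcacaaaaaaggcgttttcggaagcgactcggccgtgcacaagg
Map3k6 promoter (GRCm38.p6, chr4:133240568-133240867, plus strand): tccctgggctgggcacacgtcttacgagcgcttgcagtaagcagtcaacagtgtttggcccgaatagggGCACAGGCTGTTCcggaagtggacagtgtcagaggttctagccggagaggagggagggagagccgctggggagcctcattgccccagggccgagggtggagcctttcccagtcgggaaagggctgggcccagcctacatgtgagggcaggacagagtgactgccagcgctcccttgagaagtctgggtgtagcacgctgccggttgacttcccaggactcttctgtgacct
Fkbp5 promoter (GRCm38.p6, chr17:28486100-28486399, minus strand): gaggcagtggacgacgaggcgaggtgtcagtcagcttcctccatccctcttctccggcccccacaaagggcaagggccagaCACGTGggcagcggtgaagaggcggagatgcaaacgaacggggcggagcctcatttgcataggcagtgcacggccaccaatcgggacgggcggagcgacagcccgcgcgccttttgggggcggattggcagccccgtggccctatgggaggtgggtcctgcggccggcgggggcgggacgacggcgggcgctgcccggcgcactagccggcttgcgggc

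Fkbp5 (ENSMUSG00000024222.17, chromosome 17, 28398753 to 28486149, GRCm38.p6) encodes a co-chaperone of the receptor complex that lowers the receptor's affinity for its hormone. In the brain its normalised counts were 642, 586 and 658 in WT, 1462, 2239 and 1879.9 in tRNA-Phe-1-1-/-, 784, 825 and 685 in tRNA-Phe-2-1-/-, and 1036, 714 and 767 in tRNA-Phe-3-1-/-. The 3 tRNA-Phe-1-1-/- brains were above all 9 others, and the other knockouts lay slightly above WT (log2 fold changes 0.28 ± 0.17 and 0.40 ± 0.17). The level in tRNA-Phe-1-1-/- was 2.92-fold that of WT, a log2 fold change of 1.54 ± 0.17. In the liver the counts were 797, 652 and 681 in WT, 3040.5, 3238 and 3338 in tRNA-Phe-1-1-/-, 524, 322 and 496 in tRNA-Phe-2-1-/-, and 779, 468 and 494 in tRNA-Phe-3-1-/-. Again the 3 tRNA-Phe-1-1-/- samples were above all others, here within a narrow range, at 4.52-fold the WT level (log2 fold change 2.18 ± 0.21). The 3 tRNA-Phe-2-1-/- livers were below the 3 WT livers, with a log2 fold change of -0.69 ± 0.21.

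Tsc22d3 (ENSMUSG00000031431.13, chromosome X, 140539528 to 140600522), also named Gilz, encodes a leucine zipper protein that mediates anti-inflammatory effects of the hormone. Brain counts were 2700.5, 1801 and 2255 in WT, 4134, 5712 and 5384 in tRNA-Phe-1-1-/-, 1960.3, 1473 and 2654 in tRNA-Phe-2-1-/-, and 1739, 1599 and 2366 in tRNA-Phe-3-1-/-. The tRNA-Phe-1-1-/- brains were above all 9 others, with a log2 fold change against WT of 1.18 ± 0.23. Liver counts were 4186, 1716 and 2095 in WT, 4882, 4210.0 and 7120.0 in tRNA-Phe-1-1-/-, 1998, 1710.5 and 2085 in tRNA-Phe-2-1-/-, and 1667, 1756 and 2289 in tRNA-Phe-3-1-/-. The groups barely separated there, because WT replicate A was close to the lowest tRNA-Phe-1-1-/- liver and about 2 times the other WT livers. The log2 fold change was 1.09 ± 0.29 with all samples and 1.47 without WT replicate A.

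Zbtb16 (ENSMUSG00000066687.5, chromosome 9, 48651797 to 48836225), a zinc finger repressor also named PLZF, was called in the liver and not in the brain. Its brain counts were 1056, 1387 and 1735 in WT, 1700.4, 1275 and 1085 in tRNA-Phe-1-1-/-, 806, 570.4 and 895 in tRNA-Phe-2-1-/-, and 584, 1028 and 516 in tRNA-Phe-3-1-/-. The tRNA-Phe-1-1-/- and WT brains overlapped fully, with a log2 fold change of -0.04 ± 0.28. The other lines had lower means, with log2 fold changes of -0.87 ± 0.28 in tRNA-Phe-2-1-/- and -1.01 ± 0.28 in tRNA-Phe-3-1-/-. In the liver the counts were 985, 526 and 804 in WT, 1543, 1705 and 2291 in tRNA-Phe-1-1-/-, 785, 397 and 426 in tRNA-Phe-2-1-/-, and 562, 396 and 264 in tRNA-Phe-3-1-/-. There all 3 tRNA-Phe-1-1-/- samples were above the other 9, at 2.44-fold the WT level (log2 fold change 1.28 ± 0.33), while tRNA-Phe-3-1-/- was again at a lower mean than WT (-0.94 ± 0.33).

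Klf9 (ENSMUSG00000033863.2, chromosome 19, 23141226 to 23168129) encodes a Krüppel-like transcription factor that also responds to thyroid hormone and follows the daily rhythm. Its brain counts were 8183, 9095 and 8688 in WT, 10131, 12667 and 10802 in tRNA-Phe-1-1-/-, 9390.4, 8635 and 8940.1 in tRNA-Phe-2-1-/-, and 6835, 7939 and 5188 in tRNA-Phe-3-1-/-. The tRNA-Phe-1-1-/- brains were the highest, by a small step, and the tRNA-Phe-3-1-/- brains the lowest. The log2 fold changes against WT were 0.37 ± 0.14 and -0.40 ± 0.14, and neither passed the threshold. Its liver counts were 4591, 3735 and 4176 in WT, 4806, 6134 and 4684 in tRNA-Phe-1-1-/-, 6331, 5478 and 5052 in tRNA-Phe-2-1-/-, and 4598, 6858 and 5574 in tRNA-Phe-3-1-/-. All 3 knockout lines had higher liver means than WT by a similar amount, with log2 fold changes of 0.32 ± 0.15 in tRNA-Phe-1-1-/-, 0.43 ± 0.15 in tRNA-Phe-2-1-/- and 0.43 ± 0.15 in tRNA-Phe-3-1-/-.

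Plin4 (ENSMUSG00000002831.14, chromosome 17, 56100587 to 56109948), a coat protein of lipid droplets, had the largest brain difference of the 10 genes. Brain counts were 104, 75.0 and 84.7 in WT, 588, 974 and 1025 in tRNA-Phe-1-1-/-, 79.0, 63.6 and 123 in tRNA-Phe-2-1-/-, and 58.2, 50.6 and 150.1 in tRNA-Phe-3-1-/-. No tRNA-Phe-1-1-/- brain came within 3 times the level of any other brain, and the group was at 9.53-fold the WT level (log2 fold change 3.25 ± 0.39). Liver counts were 483, 337 and 167 in WT, 895, 1129 and 1262 in tRNA-Phe-1-1-/-, 412, 509 and 430.4 in tRNA-Phe-2-1-/-, and 362, 806 and 129 in tRNA-Phe-3-1-/-. The tRNA-Phe-1-1-/- livers were the 3 highest, but tRNA-Phe-3-1-/- replicate B lay just under them and that group spread widely. The log2 fold change against WT was 1.85 ± 0.54.

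Sgk1 (ENSMUSG00000019970.15, chromosome 10, 21882184 to 21999903), a kinase induced by serum and glucocorticoid that acts on ion transport, differed in the brain. Its brain counts were 1686, 1824 and 1612 in WT, 2476, 4433 and 3858 in tRNA-Phe-1-1-/-, 1828, 1764 and 2206 in tRNA-Phe-2-1-/-, and 1548, 1682 and 1335 in tRNA-Phe-3-1-/-. The tRNA-Phe-1-1-/- brains were above all others, replicate A least, with a log2 fold change of 1.03 ± 0.18. Liver counts were 1090.4, 876 and 919.7 in WT, 705, 922 and 639.5 in tRNA-Phe-1-1-/-, 779, 752 and 696 in tRNA-Phe-2-1-/-, and 1179, 838 and 539 in tRNA-Phe-3-1-/-. In the liver tRNA-Phe-1-1-/- overlapped with WT at a lower mean (log2 fold change -0.36 ± 0.23), and the 3 tRNA-Phe-2-1-/- livers lay below the 3 WT livers, with a log2 fold change of -0.37 ± 0.23 that did not pass the threshold.

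Errfi1 (ENSMUSG00000028967.10, chromosome 4, 150853796 to 150868889), also named Mig6, encodes an inhibitor of the epidermal growth factor receptor. Brain counts were 1014, 923 and 918 in WT, 1187, 1357 and 1328 in tRNA-Phe-1-1-/-, 970.4, 963 and 1093 in tRNA-Phe-2-1-/-, and 906, 958 and 899 in tRNA-Phe-3-1-/-. Its spread between brains was small and the tRNA-Phe-1-1-/- group stood above all others by a modest step, at 1.36-fold the WT level (log2 fold change 0.44 ± 0.08). Liver counts were 28938, 14900.3 and 10325 in WT, 45394, 50844 and 46409.8 in tRNA-Phe-1-1-/-, 32282, 17610.5 and 19950.0 in tRNA-Phe-2-1-/-, and 21065, 31724 and 15593 in tRNA-Phe-3-1-/-. The tRNA-Phe-1-1-/- livers lay close together and above all others, which varied up to about 3 times among themselves, with WT replicate A the highest of its group. The log2 fold change was 1.53 ± 0.35, and 1.94 without WT replicate A.

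Ddit4 (ENSMUSG00000020108.4, chromosome 10, 59949675 to 59951770), also named Redd1, encodes an inhibitor of the growth kinase complex mTORC1 and responds to several stresses besides the hormone. Brain counts were 630.4, 531 and 554 in WT, 818, 1446 and 1115 in tRNA-Phe-1-1-/-, 531, 580.4 and 662 in tRNA-Phe-2-1-/-, and 657, 569 and 629 in tRNA-Phe-3-1-/-. All tRNA-Phe-1-1-/- brains were above all others, with a log2 fold change of 0.94 ± 0.17. Liver counts were 292, 149 and 126 in WT, 211, 524 and 437 in tRNA-Phe-1-1-/-, 127, 159.8 and 104 in tRNA-Phe-2-1-/-, and 105, 56.3 and 118 in tRNA-Phe-3-1-/-. The lowest tRNA-Phe-1-1-/- liver was below WT replicate A, so the groups overlapped, and the log2 fold change of 1.04 ± 0.40 did not pass the threshold. Without WT replicate A it was 1.40 and passed, and it also passed without tRNA-Phe-1-1-/- replicate A, at 1.43.

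Map3k6 (ENSMUSG00000028862.6, chromosome 4, 133237979 to 133252929) encodes a stress-activated kinase of the MAP kinase cascade. Brain counts were 96.7, 131 and 107 in WT, 186, 135 and 128 in tRNA-Phe-1-1-/-, 104, 78.1 and 187 in tRNA-Phe-2-1-/-, and 79.7, 82.0 and 33.6 in tRNA-Phe-3-1-/-. The levels were low, and tRNA-Phe-1-1-/- overlapped with WT, with a log2 fold change of 0.41 ± 0.37. The 3 tRNA-Phe-3-1-/- brains lay below the 3 WT brains, with a log2 fold change of -0.86 ± 0.37 that did not pass the threshold. Its liver counts were 12.7, 18.8 and 46.7 in WT, 160.0, 169 and 128 in tRNA-Phe-1-1-/-, 29.6, 22.8 and 28.6 in tRNA-Phe-2-1-/-, and 61.5, 33.8 and 55.3 in tRNA-Phe-3-1-/-. The lowest of the 3 tRNA-Phe-1-1-/- livers, at 128, was about 2 times the highest of the other 9, at 61.5. This was the largest liver difference of the 10 genes, 6.49-fold (log2 fold change 2.70 ± 0.40). The tRNA-Phe-3-1-/- mean was also above WT, with a log2 fold change of 1.08 ± 0.40 that did not pass the threshold.

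Cdkn1a (ENSMUSG00000023067.14, chromosome 17, 29090979 to 29100722), also named p21, encodes an inhibitor of cyclin-dependent kinases and is a main target of p53 as well as of the hormone. Brain counts were 89.8, 171 and 119 in WT, 264, 239 and 190.4 in tRNA-Phe-1-1-/-, 80.0, 112 and 65.7 in tRNA-Phe-2-1-/-, and 93.7, 178 and 42.5 in tRNA-Phe-3-1-/-. The tRNA-Phe-1-1-/- brains were above all others, narrowly over tRNA-Phe-3-1-/- replicate B, and the log2 fold change of 0.90 ± 0.43 did not pass the threshold. Liver counts were 123, 107 and 101 in WT, 41.4, 316 and 24.6 in tRNA-Phe-1-1-/-, 36.9, 33.7 and 20.3 in tRNA-Phe-2-1-/-, and 77.8, 16.9 and 40.2 in tRNA-Phe-3-1-/-. Replicate B of tRNA-Phe-1-1-/- was the highest of all livers and its other replicates were below every WT liver. The log2 fold change was -0.66 ± 0.78 with all samples, -1.75 without that replicate, where it passed the threshold, and 0.21 in edgeR on the recovered reads, a turn of sign. In livers of tRNA-Phe-2-1-/- mice and of tRNA-Phe-3-1-/- mice every sample was below the 3 WT livers (log2 fold changes -1.87 ± 0.78 and -1.52 ± 0.78), and neither difference passed.

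**Figure D1:**
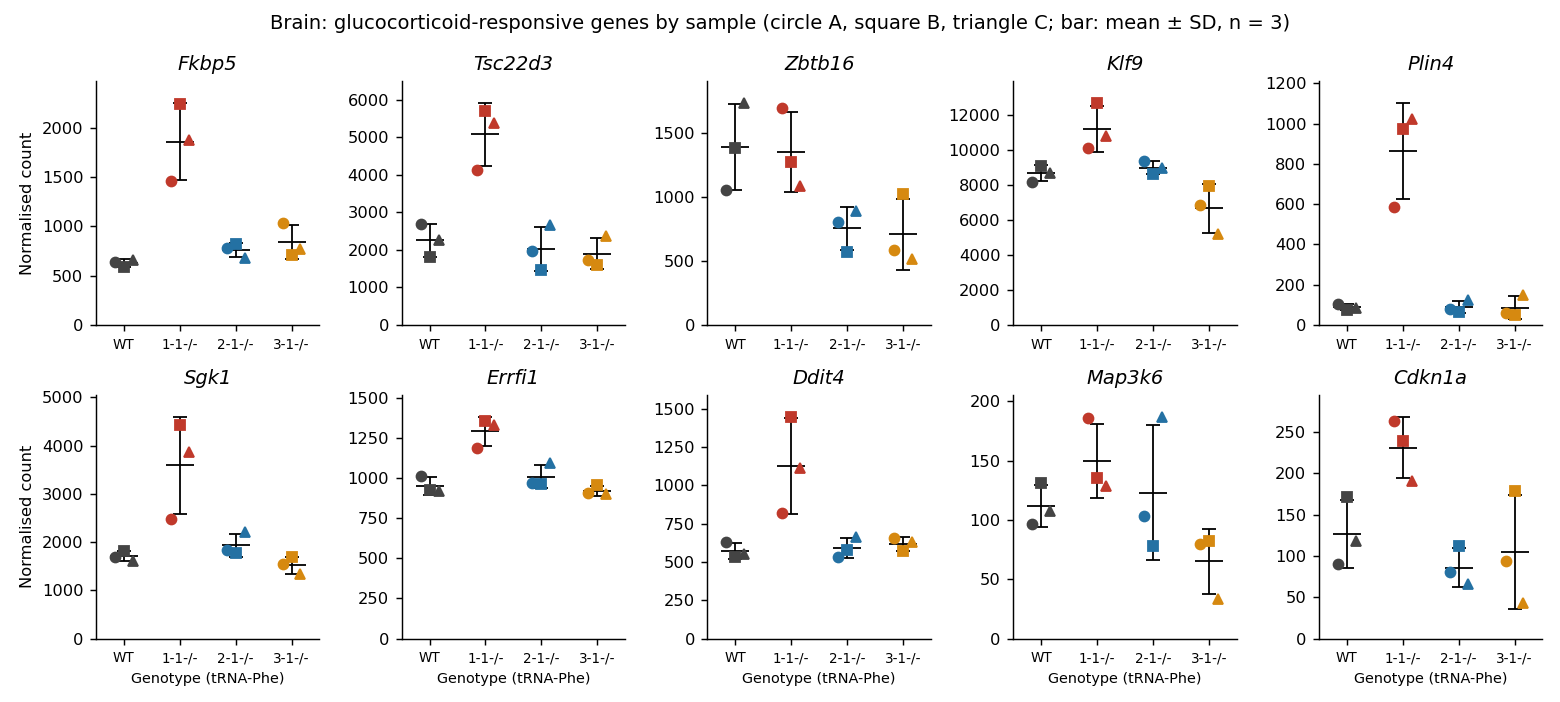
Normalised counts (y axis, from 0) of the 10 genes in the 12 brains by genotype (x axis). Each point is 1 sample, with circles, squares and triangles for replicates A, B and C, and the bar is the group mean ± SD with n = 3. For 8 of the 10 genes the 3 tRNA-Phe-1-1-/- brains lie above all 3 WT brains, as for 12.8% of all genes tested.

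**Figure D2:**
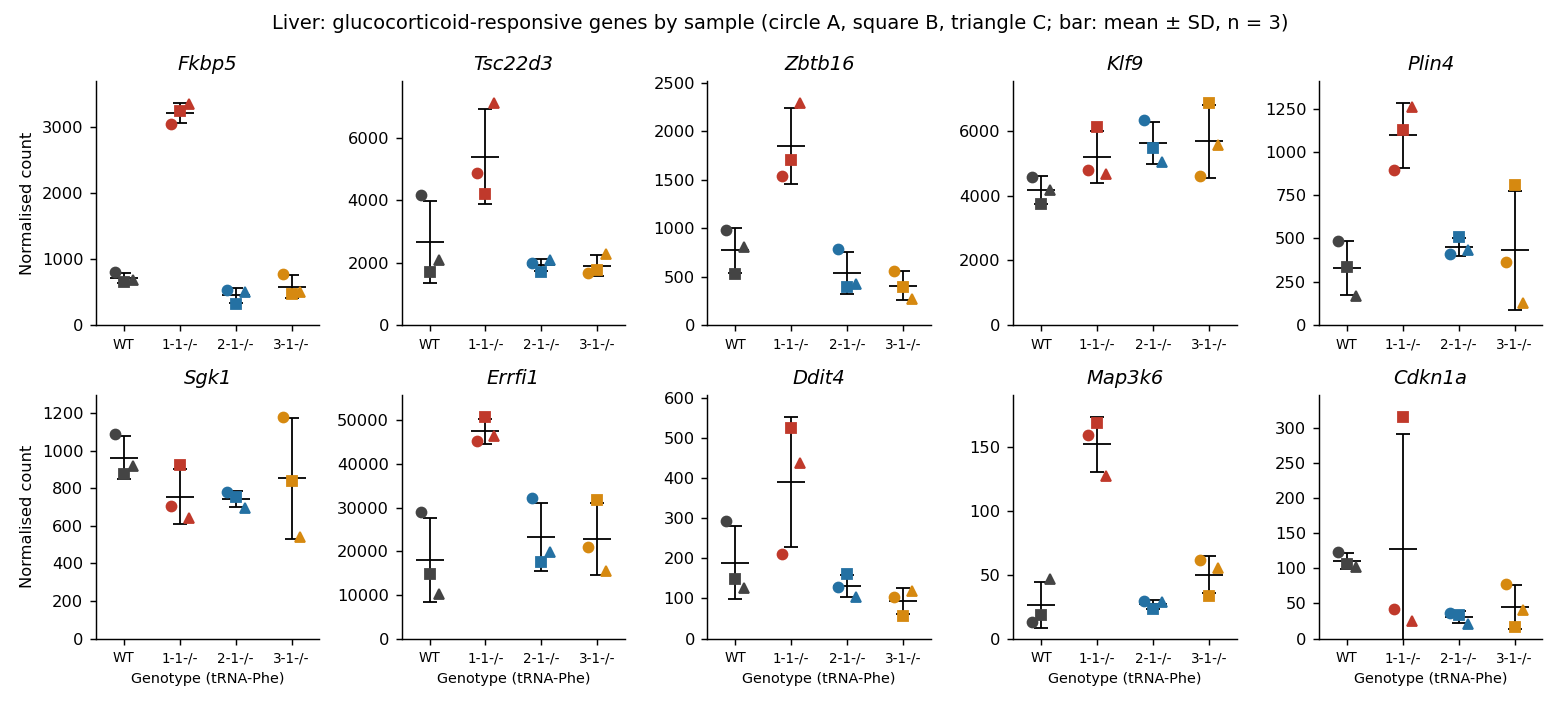
Normalised counts (y axis, from 0) of the same 10 genes in the 12 livers by genotype (x axis), with points, marks and bars as for the brain. For 7 of the 10 genes the 3 tRNA-Phe-1-1-/- livers lie above all 3 WT livers, as for 17.2% of all genes tested. Sgk1, Ddit4 and Cdkn1a overlap.

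Counted together, 6 of the 10 genes were called in tRNA-Phe-1-1-/- against WT brains (Plin4, Fkbp5, Tsc22d3, Sgk1, Ddit4 and Errfi1), all higher. Of all genes tested in that comparison 0.624% were called higher and 1.05% in either direction. In the liver 6 were called, again all higher (Map3k6, Fkbp5, Plin4, Errfi1, Zbtb16 and Tsc22d3), where 8.27% of all genes were called higher and 17.3% in either direction. Fkbp5, Tsc22d3, Plin4 and Errfi1 were called in both tissues. Sgk1 and Ddit4 were called in the brain and not the liver, and Zbtb16 and Map3k6 in the liver and not the brain. The difference between the tissues was not tested. The 3 tRNA-Phe-1-1-/- samples were above the 3 WT samples without overlap for 8 members in the brain, against 12.8% of all genes, and for 7 in the liver, against 17.2%. Their median log2 fold change was 0.92 in brains and 1.19 in livers, beside -0.00 and -0.01 over all genes tested. As the genes were chosen with such results in view, nothing is read from these counts.

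The number called rested on single libraries more than the fold changes did. In the brain it was 1 without WT replicate C or tRNA-Phe-1-1-/- replicate C, 2 without WT replicate A, WT replicate B, tRNA-Phe-1-1-/- replicate B or tRNA-Phe-2-1-/- replicate A, and 3 without tRNA-Phe-3-1-/- replicate A. The number of all genes called, 202 with all samples, ranged from 5 to 248 over the 12 libraries left out in turn. Fkbp5 was called in all 12 of these fits and Plin4 in 10. In the liver the number of members was 2 without WT replicate C and 3 without WT replicate B or tRNA-Phe-1-1-/- replicate C, and Fkbp5 and Map3k6 were called in all 12. The log2 fold change of Fkbp5 stayed between 1.40 and 1.71 in the brain and between 2.12 and 2.26 in the liver over all alternatives and libraries left out, and that of Plin4 in the brain between 3.11 and 3.51.

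Against WT, 0 of the 10 genes were called in either of the other lines. By limma 0% of all genes in the brain were called for each of them, and in the liver 0.132% and 0.883%. At an unadjusted p under 0.05 limma gave 1 and 4 members in the brain and 3 and 4 in the liver for the 2 lines in that order, of 1071, 2373, 2365 and 2550 genes. In these 4 comparisons edgeR called 0 members and DESeq2 called 1, Zbtb16 in tRNA-Phe-3-1-/- brains. For tRNA-Phe-3-1-/- brains, settings other than the main one called up to 373 of all 19228 genes. The members' median log2 fold changes were 0.05 and -0.22 in the brain and -0.36 and -0.28 in the liver. The 3 comparisons of a tissue share the same WT samples.

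The knockout lines were also compared directly. In the brain 3 members were called higher in tRNA-Phe-1-1-/- than in tRNA-Phe-2-1-/- (Plin4, Fkbp5 and Tsc22d3; 0.530% of all genes called in either direction) and 7 higher than in tRNA-Phe-3-1-/- (2.11%), where Sgk1, Klf9, Errfi1 and Ddit4 joined them. In the liver 5 members were called higher than in tRNA-Phe-2-1-/- (15.9%) and 5 higher than in tRNA-Phe-3-1-/- (16.1%), in both cases Fkbp5, Map3k6, Zbtb16, Tsc22d3 and Ddit4. Without 1 library the brain counts ran from 0, without tRNA-Phe-2-1-/- replicate B, to 5 for the first of these comparisons and from 1, without tRNA-Phe-1-1-/- replicate B or C, to 8 for the other. Between tRNA-Phe-2-1-/- samples and those of tRNA-Phe-3-1-/-, limma, edgeR and DESeq2 called 0 members in either tissue. Of all genes limma called 0%, and other settings up to 166 genes in the brain and 29 in the liver. With limma 2 members in the brain and 0 in the liver had an unadjusted p under 0.05. So did 1910 of all 19228 genes in the brain and 1059 of 15856 in the liver. Differences among the 4 genotypes in 1 test were called for 4 members in the brain (0.634% of all genes), namely Fkbp5, Plin4, Sgk1 and Tsc22d3, and for 6 in the liver (17.0%), namely Fkbp5, Map3k6, Zbtb16, Tsc22d3, Ddit4 and Errfi1.

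**Figure D3:**
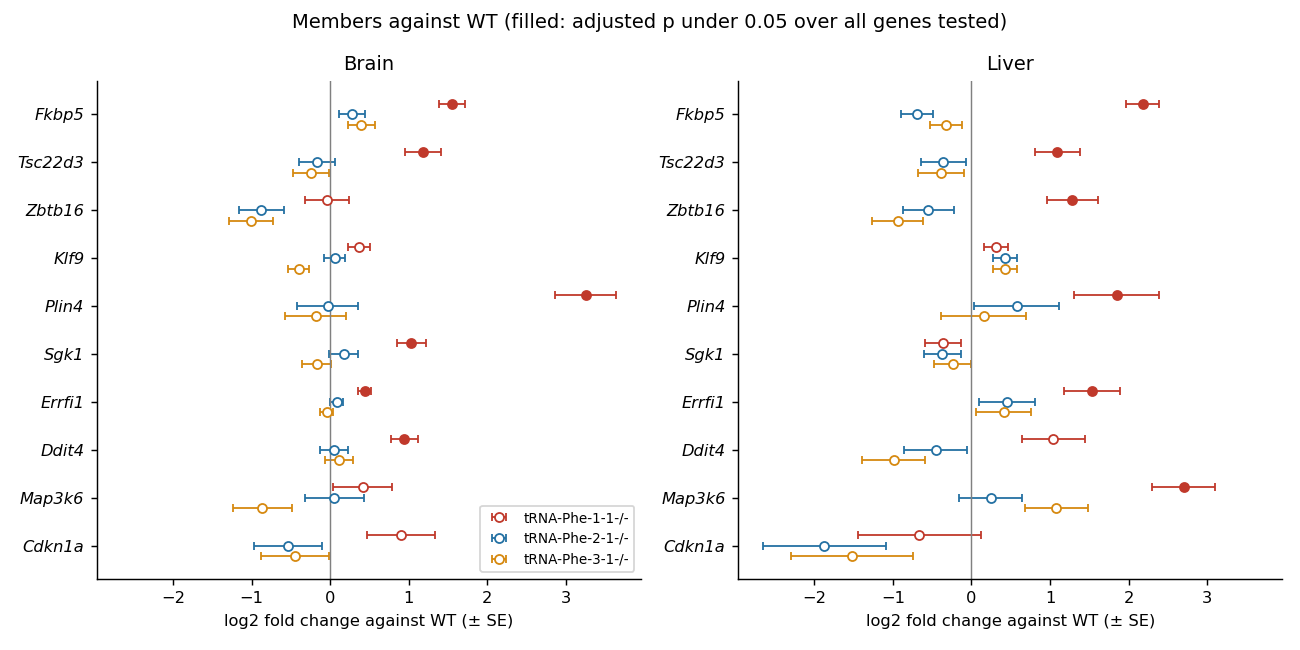
Log2 fold change against WT (x axis, ± SE) of each of the 10 genes (rows) in the 3 knockout lines, brain on the left and liver on the right. Points are filled where the gene was called, which is the case for 6 genes of tRNA-Phe-1-1-/- in each tissue and for none of the other lines. Of all genes tested, 0.624% were called higher in tRNA-Phe-1-1-/- brains and 8.27% in tRNA-Phe-1-1-/- livers.

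A sample's mean deviation over the 10 genes, on the log2 scale and from each gene's mean over the 12 samples of the tissue, placed single animals. It was 0.71, 1.00 and 0.83 in the tRNA-Phe-1-1-/- brains A to C and between -0.60 and -0.06 in the other 9. In the livers it was 0.71, 1.26 and 0.87 in tRNA-Phe-1-1-/-, 0.18, -0.34 and -0.28 in WT, and between -0.61 and -0.11 in the other lines. WT replicate A was thus the highest liver outside the tRNA-Phe-1-1-/- group, with 7 of its 10 genes above their own mean. Samples with the same replicate letter in the 2 tissues were not taken as the same animal.

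Within genotypes the 10 genes did not vary as 1 unit. After each group's mean was removed, the correlation with Fkbp5 over the 12 brains was 0.66 for Ddit4 and 0.44 for Sgk1, and between -0.52, for Zbtb16, and 0.25 for the rest. Over the 12 livers it was 0.71 for Zbtb16, 0.51 for Sgk1 and 0.32 for Errfi1, and between -0.27, for Klf9, and 0.27 for the rest. These values share libraries and scaling and are given as a description. The spread within genotypes, as a standard deviation on the log2 scale, ran in the brain from 0.09 for Errfi1 to 0.61 for Cdkn1a, and in the liver from 0.21 for Klf9 to 1.12 for Cdkn1a, which was above 98.0% of the genes tested.

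Other protein-coding genes followed the same pattern over samples. The 5 with the highest correlation with the members' mean deviation, of 13153 ranked in the brain, were Dok3 (r = 0.98), Gpt2 (0.97), Calr (0.97), Tbc1d10a (0.96) and P4ha1 (0.96). Of 11344 ranked in the liver they were Thap2 (0.97), Gin1 (0.97), Slc5a3 (0.96), Cebpd (0.96) and Slc39a6 (0.96). Over 12 samples in which 1 genotype stands apart, such values mainly rank genes by how far tRNA-Phe-1-1-/- lies from the rest.

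The remaining pathway was followed in lists written with earlier results of these samples known. The calls and adjusted p-values of their genes are therefore a description too, and not independent evidence. Of 25 other known targets of the hormone, all tested in both tissues, 8 were called in tRNA-Phe-1-1-/- brains, and all 8 rose. Of all genes tested in that comparison, 0.624% were called higher. They were Nfkbia, an inhibitor of NF-κB (log2 fold change 0.92 ± 0.13, adjusted p = 0.016), the metal-binding metallothioneins Mt2 (log2 fold change 1.00 ± 0.15, adjusted p = 0.0192) and Mt1 (log2 fold change 0.71 ± 0.11, adjusted p = 0.019), Angptl4, an inhibitor of lipoprotein lipase (log2 fold change 1.42 ± 0.24, adjusted p = 0.0246), and 4 others. Their p-values are from limma, adjusted over all genes tested. Mt2 counts were 522, 518 and 553 in WT, 960.2, 1299 and 968 in tRNA-Phe-1-1-/-, 514, 476 and 487 in tRNA-Phe-2-1-/-, and 619.6, 470.4 and 714 in tRNA-Phe-3-1-/-, so that every tRNA-Phe-1-1-/- brain was above every other. Against WT alone, 12.8% of all genes in the brain were higher without overlap. The list had a median log2 fold change of 0.60, with 22 of 25 genes above 0, beside 49.9% of all genes. Its number of calls in the brain was 0 without WT replicate C or tRNA-Phe-1-1-/- replicate C and 1 without WT replicate B or tRNA-Phe-1-1-/- replicate B. It was 3 without WT replicate A, 4 without tRNA-Phe-1-1-/- replicate A, and 5 without tRNA-Phe-2-1-/- replicate A or B or tRNA-Phe-3-1-/- replicate A.

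In the liver 13 of the same 25 targets rose in tRNA-Phe-1-1-/- and 1 fell, where 8.27% of all genes were called higher and 9.08% lower. The median of the list was 0.71, with 19 genes above 0, and the number that rose was 12 to 14 whichever library was left out. Fam107a reached the filter only through the tRNA-Phe-1-1-/- livers, since its mean over the other 9 was under 10, and without it 12 of 24 rose, with a median of 0.69. The others with the lowest adjusted p in limma were the transcription factors Cebpd (log2 fold change 2.49 ± 0.23, adjusted p = 0.000114) and Cebpb (log2 fold change 2.09 ± 0.22, adjusted p = 0.000195) and Pdk4 (log2 fold change -2.95 ± 0.30, adjusted p = 0.000163), the kinase that restrains pyruvate dehydrogenase. Fam107a had 0, 0.988 and 0 normalised counts in WT and 43.3, 39.7 and 20.5 in tRNA-Phe-1-1-/- livers, so its fold change is not given. Cebpb counts were 764, 661 and 484 in WT, 2667, 2678 and 2671 in tRNA-Phe-1-1-/-, 1241, 1145 and 1169.7 in tRNA-Phe-2-1-/-, and 538, 1084 and 889 in tRNA-Phe-3-1-/-, and the tRNA-Phe-1-1-/- livers were more than 2 times above every other. Pdk4 is known to be raised by the hormone and by fasting, and it was the 1 target of the list that fell, from 816, 699 and 746 in WT to 69.6, 112 and 116 in tRNA-Phe-1-1-/- livers. It also fell in tRNA-Phe-3-1-/- livers (log2 fold change -2.04 ± 0.30, adjusted p = 0.0229), as did Foxo1, a transcription factor of fasting (log2 fold change -0.73 ± 0.11, adjusted p = 0.0229). Both calls were lost, with adjusted p up to 0.119 in limma, without any 1 WT library or without tRNA-Phe-3-1-/- replicate B or C, and in that comparison the number of all genes called, 140 with all samples, was 2 to 213 with 1 library left out. The median of the list was -0.26 in tRNA-Phe-2-1-/- and -0.12 in tRNA-Phe-3-1-/- livers, and -0.10 and -0.09 in the brains of the same lines.

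**Figure D4:**
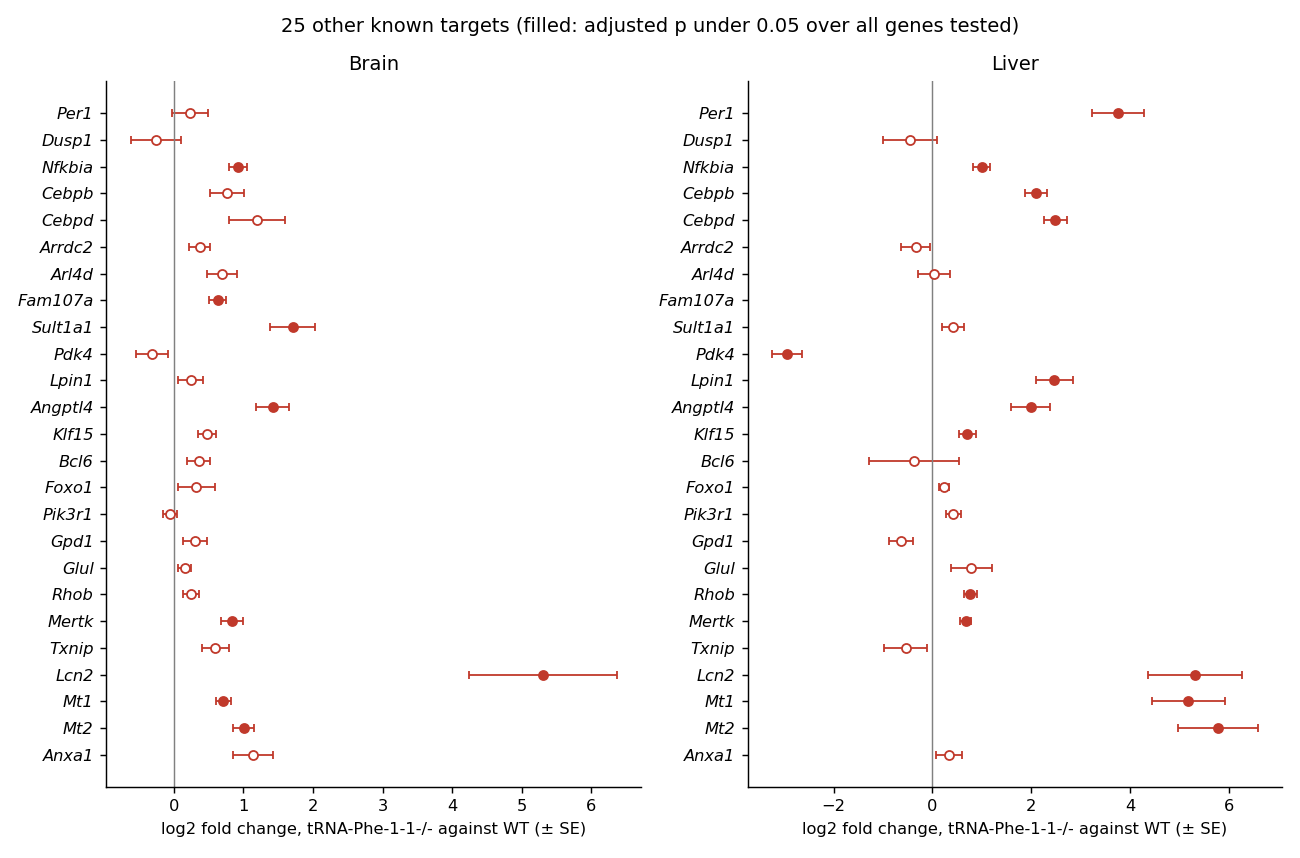
Log2 fold change in tRNA-Phe-1-1-/- against WT (x axis, ± SE) of 25 other known glucocorticoid targets (rows), brain on the left and liver on the right. Filled points were called, 8 higher in the brain and 12 higher and 1 lower, Pdk4, in the liver, where Fam107a, with WT levels near 0, is not drawn. Of all genes tested, 0.624% were called higher in the brain, and 8.27% higher and 9.08% lower in the liver.

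Of 9 metabolic genes of the liver that the hormone is known to raise, 2 rose in tRNA-Phe-1-1-/-, where 8.27% of all genes were called higher. These were Pck1, the rate-limiting enzyme of gluconeogenesis (log2 fold change 1.93 ± 0.25, adjusted p = 0.000582), and Pfkfb3, a regulator of glycolysis (log2 fold change 2.85 ± 0.55, adjusted p = 0.00515). Pck1 counts were 29917, 25284 and 25031 in WT, 93794, 106521 and 104314 in tRNA-Phe-1-1-/-, 24808, 22721 and 50666 in tRNA-Phe-2-1-/-, and 51753, 39306 and 42376 in tRNA-Phe-3-1-/-. Tat, tyrosine aminotransferase and a classical target, was at 38113, 39669 and 37038 in WT, 37282, 79943 and 43574 in tRNA-Phe-1-1-/-, 15361, 16932 and 21416 in tRNA-Phe-2-1-/-, and 31650.3, 14211 and 24214 in tRNA-Phe-3-1-/-, which overlapped between WT and tRNA-Phe-1-1-/-, and was named after its values were seen. Of the same 9 genes 1 rose in tRNA-Phe-3-1-/- livers, where 0.189% of all genes were called higher. This was Tdo2, which starts the breakdown of tryptophan (log2 fold change 0.53 ± 0.10, adjusted p = 0.0392, limma over all genes), and its call held in 3 of the 12 fits with a library left out.

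The receptor gene itself had lower levels in tRNA-Phe-1-1-/-. Nr3c1 counts in the brain were 6922, 7485 and 7870.4 in WT, 5611, 5327 and 5534 in tRNA-Phe-1-1-/-, 6824, 5956 and 6799 in tRNA-Phe-2-1-/-, and 5053, 5510.3 and 5616 in tRNA-Phe-3-1-/-, and in the liver 5469, 5704 and 5349.5 in WT, 4819.9, 4564 and 4949 in tRNA-Phe-1-1-/-, 5823, 5982 and 5889.9 in tRNA-Phe-2-1-/-, and 5396, 5770.0 and 5846 in tRNA-Phe-3-1-/-. Both tRNA-Phe-1-1-/- groups lay below WT without overlap, as they did for 12.4% of all genes in the brain and 17.6% in the liver. Nr3c1 fell in the brain (log2 fold change -0.43 ± 0.08, adjusted p = 0.0318) and the liver (log2 fold change -0.21 ± 0.06, adjusted p = 0.0488). In tRNA-Phe-3-1-/- brains it had a similar log2 fold change of -0.46 ± 0.08 that did not pass the threshold (adjusted p = 0.13, limma). The calls of Nr3c1 rested on single libraries and on the setting. That in the brain was lost without WT replicate B or C or any 1 tRNA-Phe-1-1-/- library (adjusted p up to 0.138). That in the liver held in 1 of the 12 fits with a library left out, the one without tRNA-Phe-3-1-/- replicate A. Under the 10 other settings the brain call held in 8 and the liver call in 4. Of 6 other genes of the receptor list, which holds the mineralocorticoid receptor and chaperones, 4 rose in tRNA-Phe-1-1-/- livers, where 8.27% of all genes were called higher. They were Hsp90aa1 (log2 fold change 1.08 ± 0.16, adjusted p = 0.0011), Stip1, Hsp90ab1 and Ptges3. Stip1 rose in the brain as well (log2 fold change 0.57 ± 0.08, adjusted p = 0.0183). Nr3c2, the mineralocorticoid receptor, rose in tRNA-Phe-3-1-/- livers (log2 fold change 0.62 ± 0.11, adjusted p = 0.0353), a call that held in 5 of the 12 fits with a library left out. Adjusted p-values in this paragraph are from limma over all genes tested.

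Among 7 genes of hormone supply and breakdown, Hsd11b1, which regenerates active hormone inside cells, had tRNA-Phe-1-1-/- log2 fold changes of -0.99 ± 0.28 in brains and -0.31 ± 0.11 in livers, and neither passed the threshold. In the liver 2 of the 6 tested fell, Serpina6, the corticosteroid-binding globulin of plasma (log2 fold change -0.81 ± 0.24, adjusted p = 0.038), and Akr1d1, a reductase that clears steroids (log2 fold change -1.47 ± 0.21, adjusted p = 0.0011), both by limma over all genes. With a library left out the call of Akr1d1 held in all 12 fits and that of Serpina6 in 5. The 4 tested in the brain had a median log2 fold change of -0.54. Of 8 coregulators Med1 rose in the liver, and the medians were -0.08 in the brain and -0.06 in the liver. Of 17 tested relatives of the members' families 4 rose and 4 fell in the liver, among them Klf13, which rose, and Sgk2, which fell there and in the brain, where the call held in 3 of the 12 fits with a library left out. Beside the counts of this paragraph, 8.27% of all genes were called higher and 9.08% lower in tRNA-Phe-1-1-/- livers, and 0.426% lower in the brains.

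Genes that share other inputs with the members were read beside them. Of 10 p53 targets, 4 rose in tRNA-Phe-1-1-/- livers (Ccng1, Phlda3, Zmat3 and Sesn2), where the median log2 fold change was 0.64 with 10 above 0. The 9 tested in the brain had a median of -0.03 with 4 above 0. Of 9 tested targets of the stress factor Atf4, 2 rose in the livers (Chac1 and Sesn2), where the median was 0.43, and the 10 tested in the brain had a median of 0.08. Over all genes tested the median was -0.00 in the brain and -0.01 in the liver, where 8.27% of all genes were called higher. With a library left out the call of Phlda3 held in 2 of the 12 fits and that of Chac1 in 3. The part of these genes in the members' differences was not tested.

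Clock genes differed strongly between livers. In tRNA-Phe-1-1-/- livers 6 of 12 rose and 5 fell, among them Dbp, a transcription factor with a strong daily rhythm, and Arntl, a core clock activator. Of all genes, 8.27% were called higher and 9.08% lower there. Dbp counts were 67.4, 28.7 and 67.5 in WT, 2776, 853 and 3069 in tRNA-Phe-1-1-/-, 36.9, 84.8 and 383 in tRNA-Phe-2-1-/-, and 170.0, 2173 and 1343 in tRNA-Phe-3-1-/-. The tRNA-Phe-1-1-/- livers were all above WT in Dbp, and replicates B and C of tRNA-Phe-3-1-/- lay within the range of the tRNA-Phe-1-1-/- livers. In the brain Per2 and Per3 of the 12 rose in tRNA-Phe-1-1-/-, where 0.624% of all genes were called higher. These calls held in 8 and 2 of the 12 fits with a library left out. Dbp counts in the brain were 1602, 1262 and 1436 in WT, 1909, 2015 and 2407 in tRNA-Phe-1-1-/-, 1274, 1691 and 1608 in tRNA-Phe-2-1-/-, and 1663, 1858 and 1790.2 in tRNA-Phe-3-1-/-. The genotype and the hour of dissection cannot be told apart for the clock genes, and the part of the daily rhythm in the members' differences was not tested.

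Markers of other cell types differed in part between tRNA-Phe-1-1-/- and WT, and some varied widely within the other lines. Over the 6 markers of each type, the summed level in tRNA-Phe-1-1-/- brains was 36737 to 67812 for oligodendrocytes, against 95561 to 112748 in WT, and 6924 to 8153 for endothelial cells, against 6226 to 6691. Of the endothelial markers Slc2a1 and Ly6c1 rose and Cldn5 and Itm2a fell, and of the oligodendrocyte markers Opalin fell. Astrocyte sums were 52455 to 53220 against 45406 to 55258. Choroid plexus sums were 152 to 458 against 610 to 12942, with 0 of the 6 markers called. They were 123 to 52205 in tRNA-Phe-2-1-/- brains and 332 to 26191 in tRNA-Phe-3-1-/- brains. Oligodendrocyte sums in these lines were 53272 to 124228 and 64562 to 139320, which overlapped both tRNA-Phe-1-1-/- and WT. In the livers the neutrophil sum was 89.0 to 304 against 10.7 to 42.8, where 2 of the 6 markers passed the filter, S100a9 and, through the tRNA-Phe-1-1-/- livers alone, S100a8, and both rose. That of hepatocyte markers was 2341040 to 2873010 against 2828600 to 3462690, with Fgb higher and the other 5 not called. Of 6 liver endothelial markers Lyve1 and Pecam1 rose and Kdr fell, with sums of 9157 to 11811 against 11162 to 12613, and of 6 stellate cell markers Dcn rose, with sums of 13638 to 16354 against 12763 to 14295. The call of Pecam1 held in 5 of the 12 fits with a library left out and that of Dcn in 3. The Kupffer cell sum was 6454 to 9595 against 6770 to 7908 and that of cholangiocytes 779 to 956 against 849.6 to 981, with no marker of either called. None of these markers was at 0 in all samples of its own tissue, and their part in the members' differences was not tested. Of all genes, 0.624% were called higher and 0.426% lower in tRNA-Phe-1-1-/- brains. In the livers these shares were 8.27% and 9.08%.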

How the data were processed

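RNA of 12 brain and 12 liver samples was measured by sequencing. By the methods of the study, the authors used Trim Galore and cutadapt on the reads, aligned them with STAR to GRCm38.p6, quantified strand-aware transcripts with Salmon and scaled each tissue with DESeq2. The deposited values are a signal, estimated counts divided by a size factor per sample; 100% gave whole reads (tolerance 0.001 reads) when divided by a step per sample, and every column of sample values was mapped (0 left out). The deposited tables of the authors' own comparisons (fold changes and s-values) were not used. Salmon divides reads between similar transcripts, which can shift genes with close copies.

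The main test took log2(normalised count + 1) into limma 3.58.1 (R 4.3.3; trend, mean of at least 10, Benjamini-Hochberg per comparison), all 12 samples of a tissue in 1 fit. Genes were found by Ensembl identifier (symbols for 93.2%). The code was tested on simulated data, where 67 of 100 2-fold changes were recovered for tRNA-Phe-1-1-/- against WT brains (19057 genes) and 59 of 83 for livers (15713 genes). An exact permutation test of 3 against 3 cannot go below 0.1 (two-sided) and was not used. Alternatives were the pseudocount, the filter, quantile scaling, no trend, a replicate block, only the 2 groups compared, edgeR 4.0.16 and DESeq2 1.42.0 on recovered reads, and each library left out.

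Members and lists were chosen with earlier results of these data known. All members are named; of other lists, genes past the threshold, at most the 4 with the lowest adjusted p, and always Nr3c1 and Hsd11b1; by likeness, 5 genes per tissue with a mean of at least 50. Tat was named after its values were seen.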

Additional observations from a re-analysis of the deposited data

Results flagged for a closer look

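In 2 comparisons every knockout sample lay on one side of WT in the brain and on the other side in the liver. Fkbp5 in tRNA-Phe-2-1-/- against WT had a log2 fold change of 0.28 in the brain, with all 3 samples above the 3 WT samples, and of -0.69 in the liver, with all 3 below. Klf9 in tRNA-Phe-3-1-/- against WT had -0.40 in the brain, with all 3 samples below, and 0.43 in the liver, with all 3 above. Neither gene was called in these comparisons. For tRNA-Phe-2-1-/-, 6.02% of all genes lay above WT without overlap in the brain and 12.2% below in the liver. For tRNA-Phe-3-1-/-, 8.48% lay below in the brain and 9.85% above in the liver. The differences between the tissues were not tested.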

How the results depend on the processing

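The number of members called moved by over 1.5 times under the following alternatives. In the brain, tRNA-Phe-1-1-/- against WT gave 6, but 2 without the trend and 3 with only the 2 groups compared, and 1 to 6 with 1 library left out. Against tRNA-Phe-2-1-/- it gave 3, but 1 with only the 2 groups and 7 in DESeq2, and 0 to 5 with 1 library left out; against tRNA-Phe-3-1-/- it gave 7, but 0 with only the 2 groups, and 1 to 8. The test over the 4 genotypes gave 4, but 2 without the trend and 8 in DESeq2, and 0 to 5. For tRNA-Phe-3-1-/- against WT DESeq2 gave 1 instead of 0. In the liver the 6 of tRNA-Phe-1-1-/- against WT became 2 to 7 with 1 library left out, and tRNA-Phe-2-1-/- against WT gave 1, Cdkn1a, instead of 0 with only the 2 groups. The cause was not tested, except that comparisons of only 2 groups hold fewer samples.

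Over all members and comparisons, no called log2 fold change turned sign. Of the members' fold changes under other settings 1144 kept their direction and side of the threshold, 5 turned sign without a call under either setting, 27 lost the call and 24 gained it, and with 1 library left out these numbers were 1290, 46, 87 and 17. The number of all genes called moved more: for tRNA-Phe-1-1-/- against WT, 202 in the brain became 95 to 874 and 2751 in the liver 1808 to 3482 under other settings, and 5 to 248 and 1472 to 2871 with 1 library left out. For the other lines against WT, tRNA-Phe-2-1-/- first, 0 and 0 in the brain became up to 21 and 373 under other settings and up to 0 and 75 with 1 library left out, and in the liver 21 and 140 became 0 to 495 and 8 to 767, and with 1 library left out 0 to 41 and 2 to 213. The 8 other targets called higher in tRNA-Phe-1-1-/- brains became 4 without the filter or the trend, alternatives chosen for this list after seeing the data.

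Replicate letters were shared between groups, but same-letter deviations had correlations of -0.16 to 0.49 (brain) and -0.29 to 0.24 (liver), with 7 and 3 of 18 pairs over 0.1, so the letters were not taken as pairs. With the replicate block 4 members were called in tRNA-Phe-1-1-/- against WT brains and 6 in livers. Low depth limits Map3k6 in the liver most, at 13 to 192 reads.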
